A study of Mus musculus with 11 samples.

Results

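Axon guidance genes encode the secreted and membrane-bound cues, and their receptors, that steer growing axons, and the same families shape branching epithelia. Netrins bind DCC, neogenin and the UNC5 receptors. SLIT proteins bind ROBO receptors, semaphorins bind plexins and neuropilins, and ephrins bind Eph receptor tyrosine kinases on neighbouring cells. In the mouse mammary gland, netrin-1 and neogenin are known for holding the cap cell layer to the body of the terminal end bud (TEB), and SLIT and ROBO1 for keeping the epithelial layers together and restraining branching. Accessible chromatin was described here at 40 listed genes of these families. The peaks of a gene were those overlapping its body or lying within 10 kb of one of its transcription start sites (TSSs), which gave 635 of the 153396 peaks of the series. A peak within 500 bp of a TSS of the gene was a promoter peak, and 37 of the 40 genes had at least 1. Dcc, Unc5a and Slit1 had none and were described by their other peaks. The 37 genes had 52 promoter peaks, of which the most accessible of each gene stands for its promoter, and the 40 genes had 583 other peaks, 486 in introns, 48 in exons and 49 outside the gene body.

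ATAC-seq, in which a transposase cuts open chromatin, was performed on basal and luminal epithelial cells of 5-week-old pubertal C57BL/6 mice that carried an E-cadherin-GFP reporter in all 4 groups. TEBs, the growing tips of the ductal tree, and the ducts behind them were dissected under fluorescence, and lineage-negative CD24+CD29+ cells were sorted as luminal where GFP was high and as basal where it was low. The replicates came from independent pools of mice. Basal TEB, luminal duct and luminal TEB had 3 libraries each, and basal duct had 2, numbered 1 and 3. The populations were bulk, so that an open site in few cells and a partly open site in many cannot be told apart.

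Counts in peaks ran from 1821942 to 2489582 per library in basal TEB, from 2960093 to 3738324 in luminal TEB, from 4650216 to 5561051 in luminal duct, and were 6816197 and 9986384 in basal duct. Precision was therefore lowest in basal TEB, where the median peak held 6 counts. The share of counts in TSS peaks was 40.05% and 42.7% in basal duct and 31.1% to 35.7% in basal TEB, against 35.6% to 37.4% in luminal duct and 32.7% to 34.6% in luminal TEB. The labels were checked on promoters of marker genes: the summed level of 10 basal promoters was 303 and 339 CPM (counts per library scaled to 1000000) in basal duct, 172 to 241 in basal TEB and 38.8 to 45.4 over the luminal libraries, and all 10 passed the test on the basal side in ducts. The summed level of 11 luminal promoters was 340 to 428 CPM in luminal duct, 313 to 374 in luminal TEB, 235 and 266 in basal duct and 120 to 143 in basal TEB. Of 10 fibroblast genes, 5 had a promoter peak, and their sum was 139 and 158 CPM in basal duct, 64.9 to 87.3 in basal TEB and 20.2 to 24.7 over the luminal libraries. Of 10 endothelial genes, 4 had one, with sums of 47.4 and 50.7, of 27.0 to 35.5 and of 12.9 to 23.2 CPM in the same order. Of 6 pericyte genes, 4 had one, with sums of 30.5 and 36.1, of 19.9 to 27.1 and of 15.5 to 21.7 CPM. Of 8 Schwann cell and nerve genes, 6 had one, with sums of 115 and 127, of 75.1 to 99.4 and of 86.3 to 111 CPM, and 4 of the 6 were higher and 1 lower in basal than in luminal duct. Of 9 immune genes, 3 had one, with sums of 24.5 and 26.1, of 10.74 to 26.2 and of 18.9 to 24.1 CPM. No marker promoter was at 0 in a whole group, and the part of these cells in the results was not tested.

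The results turn on a few sites, whose sequences are shown first. All but the last are the 300 bases at the centre of an ATAC peak on the plus strand of GRCm38 (mm10), and capitals mark matches, on either strand, to short motifs. The share that follows each is its share of such windows over all 153396 peaks. The AP-1 motif was searched as TGANTCA and was in 25.8% of windows. For TEAD factors the letters were CATTCC, with matches in 21.2%. FOX factors were represented by TGTTTAC, found in 6.53%, and GATA factors by AGATAA, found in 13.0% of the windows. The letters taken for ETS factors were CCGGAAG, present in 2.97%, and RUNX was searched as TGTGGT, present in 22.6%. Motifs of SRF and p63 were in 1.58% and 3.11%. The Slit3 window (chr11:35415891-35416190, intron) belongs to the basal-enriched other peak with the smallest p-value and holds 1 GATA match. The next 3 windows belong to peaks open in luminal and nearly closed in basal duct libraries. The Unc5b window (chr10:60832987-60833286, upstream of the gene) holds 1 TEAD match, the Slit2 window (chr5:48004048-48004347, intron) holds 1 GATA and 1 RUNX match, and the Robo1 window (chr16:72973769-72974068, intron) holds 1 AP-1 match. The Robo2 window (chr16:74174580-74174879, intron) belongs to the peak with the smallest p-value among those higher in basal TEB than in basal duct, and it is a tandem repeat of a 41-base unit in which 100% of bases equal the base 1 unit further on. The last sequence is the 250 bases before the RefSeq start of Ntn4 (chr10:93640799-93641048, plus strand, GRCm38.p6), the promoter with the largest loss in basal TEB, where capitals mark CG pairs. It lies within the Ntn4 promoter peak, downstream of the 5′ end of the gene in the annotation used for the peaks (chr10:93640681).
Slit3 intron: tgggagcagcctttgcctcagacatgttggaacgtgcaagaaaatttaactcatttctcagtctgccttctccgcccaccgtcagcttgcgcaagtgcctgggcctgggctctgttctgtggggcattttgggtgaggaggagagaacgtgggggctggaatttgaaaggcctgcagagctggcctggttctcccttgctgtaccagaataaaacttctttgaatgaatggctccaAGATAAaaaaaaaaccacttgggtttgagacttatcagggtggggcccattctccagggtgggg
Unc5b upstream: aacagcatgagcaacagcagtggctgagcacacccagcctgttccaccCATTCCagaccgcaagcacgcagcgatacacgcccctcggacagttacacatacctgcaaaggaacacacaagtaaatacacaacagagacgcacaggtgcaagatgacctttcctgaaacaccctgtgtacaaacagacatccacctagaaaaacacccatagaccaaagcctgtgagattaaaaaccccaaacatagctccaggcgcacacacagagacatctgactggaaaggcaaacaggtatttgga
Slit2 intron: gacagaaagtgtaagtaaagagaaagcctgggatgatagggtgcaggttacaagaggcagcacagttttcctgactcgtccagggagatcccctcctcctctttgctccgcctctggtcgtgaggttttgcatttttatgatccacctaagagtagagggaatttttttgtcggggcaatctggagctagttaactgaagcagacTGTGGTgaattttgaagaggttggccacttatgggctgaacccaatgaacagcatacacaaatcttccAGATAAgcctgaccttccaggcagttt
Robo1 intron: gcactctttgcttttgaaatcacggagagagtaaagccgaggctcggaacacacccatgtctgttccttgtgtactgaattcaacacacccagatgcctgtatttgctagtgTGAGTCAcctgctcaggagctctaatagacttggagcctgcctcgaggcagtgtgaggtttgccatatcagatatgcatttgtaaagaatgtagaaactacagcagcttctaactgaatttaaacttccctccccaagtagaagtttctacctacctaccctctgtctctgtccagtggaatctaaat
Robo2 intron: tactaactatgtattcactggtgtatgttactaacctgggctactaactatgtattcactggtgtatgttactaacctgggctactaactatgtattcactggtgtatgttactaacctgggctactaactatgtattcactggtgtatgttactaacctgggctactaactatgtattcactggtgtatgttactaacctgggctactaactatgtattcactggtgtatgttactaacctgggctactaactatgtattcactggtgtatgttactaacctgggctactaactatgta
Ntn4 promoter: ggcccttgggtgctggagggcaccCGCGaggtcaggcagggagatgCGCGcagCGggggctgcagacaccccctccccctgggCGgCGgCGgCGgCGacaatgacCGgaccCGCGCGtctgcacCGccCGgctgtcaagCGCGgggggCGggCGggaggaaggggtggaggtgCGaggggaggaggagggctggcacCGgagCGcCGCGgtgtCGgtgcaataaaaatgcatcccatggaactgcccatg
None of the matches shown overlap each other. The Ntn4 promoter holds 26 CG pairs, against a median of 6 over 32851 RefSeq promoters, of which 9.59% hold as many. RefSeq promoter sequences were found for 34 of the 40 genes.

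To ask how the lineages differ in the mature structure, basal duct was compared with luminal duct. Promoters of axon guidance genes were more often open in basal cells. Of 37 promoters, 28 were higher in basal duct and 1, that of Epha1, was higher in luminal duct (edgeR exact test, adjusted p under 0.05), while 43.7% of all 13740 promoters were higher and 11.3% lower. The median log2 fold change was 0.75 over the 37 promoters and 0.31 over all promoters. Of 583 other peaks, 275 were higher and 143 lower, while 31.2% of the other peaks of all genes were higher and 39.6% lower, and medians were 0.82 over the members and -0.20 over all genes. Of the 15 further promoter peaks of these genes, 10 were higher and 3 lower. Scaling on TSS peaks moved the median of all promoters to -0.01 and that of the members to 0.43. It left 21 member promoters higher and 5 lower, against 26.3% and 29.0% of all promoters. With offsets by GC content the counts were 17 and 5, against 26.9% and 29.7%. Without basal duct replicate 3, or without luminal duct replicate 2, no member promoter was called lower.

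**Figure D1:**
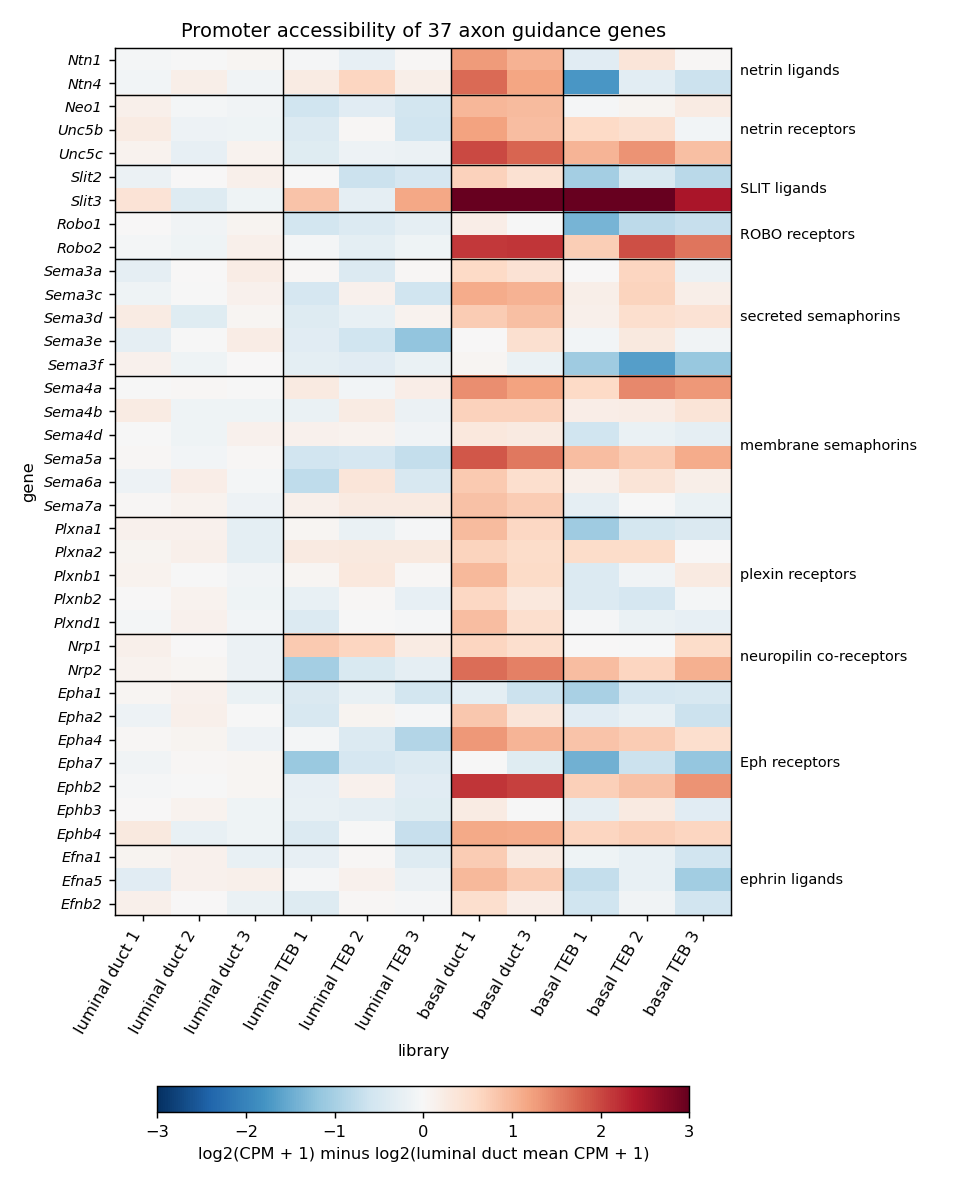
Rows are the 37 genes with a promoter peak, by role, and columns the 11 libraries. Colour gives log2(CPM + 1) of the promoter peak minus log2 of the luminal duct mean CPM + 1, and it saturates at 3 in both directions. Red fills most of the 2 basal duct columns, deepest at Slit3, and is paler or absent in most rows of the basal TEB columns.

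SLIT3, a secreted ligand, had the largest promoter difference among the 37 genes. The Slit3 promoter (chr11:35120840-35122051) had 41.4 and 38.1 CPM in the basal duct libraries, 19.4, 19.6 and 12.9 in basal TEB, 2.33, 0.933 and 1.29 in luminal duct, and 3.57, 1.09 and 4.61 in luminal TEB. All basal libraries lay above all luminal ones. The log2 fold change (± SE) between the lineages in ducts was 4.65 ± 0.32 (edgeR adjusted p = 3.4e-69). The opening spread over the gene: of 72 other Slit3 peaks, 52 were higher in basal duct, from 1.67 kb upstream to 566 kb into the 587 kb gene, and 8 were higher in luminal duct. The shares over all genes were 31.2% and 39.6%. The intron peak shown above as sequence, 295 kb into the gene (chr11:35415522-35416558), had 40.7 and 39.1 CPM in basal duct, 23.5, 36.8 and 18.2 in basal TEB and 0.848, 1.31 and 0.860 in luminal duct, which is 5.20 ± 0.16 on the log2 scale in ducts (edgeR adjusted p = 1.3e-76). The summed fibroblast markers given above were also higher in basal libraries, with 5 of 5 measured promoters higher in basal duct, against 43.7% of all promoters. The part of these markers in the Slit3 values was not tested.

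SLIT2, the paralogous ligand, differed little between lineages at its promoter and in opposite directions inside the gene. The Slit2 promoter had 45.8 and 38.8 CPM in basal duct, 13.3, 20.3 and 15.5 in basal TEB, 24.6, 28.5 and 31.2 in luminal duct and 27.7, 17.5 and 19.4 in luminal TEB. Its log2 fold change in ducts was 0.53 ± 0.15 (edgeR adjusted p = 0.0022), which was 0.20 (adjusted p = 0.20) with TSS scaling. Against a share of 31.2% over all genes, 5 of 9 other Slit2 peaks were higher in basal duct, at 1.26 to 56.1 kb into the gene. Between them, at 21.1 kb, lay the luminal site of the sequence list (chr5:48003780-48004614), with 0.798 and 0.770 CPM in basal duct, 2.04, 0.391 and 3.10 in basal TEB, 24.8, 34.5 and 27.1 in luminal duct and 21.1, 30.1 and 21.7 in luminal TEB. The lineages did not overlap there, and the log2 fold change in ducts was -5.23 ± 0.14 (edgeR adjusted p = 1.4e-60). Slit1, the third ligand of the family, had no promoter peak, and of its 10 other peaks 4 were higher in luminal duct and none in basal duct, where 4 of 10 is close to the background share of 39.6%.

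Robo1, of a ROBO receptor, was mostly luminal inside the gene. At the Robo1 promoter the lineages overlapped in ducts, with 65.7 and 56.4 CPM in basal duct and 57.3, 52.8 and 60.4 in luminal duct (log2 fold change 0.05 ± 0.11, edgeR adjusted p = 0.82). Basal TEB had 21.0, 32.5 and 35 CPM and luminal TEB 38.4, 42.6 and 46.8. This promoter peak (chr16:72662821-72664545) is at a TSS inside the gene, whose annotated 5′ end is at chr16:72308306. Of 46 other Robo1 peaks, 32 were higher in luminal duct, at 42.4 to 723 kb from the 5′ end of the 738 kb gene, and 6 in basal duct. The intron peak of the sequence list (chr16:72973576-72974261) had 0.684 and 1.08 CPM in basal duct, 5.11, 1.96 and 2.22 in basal TEB, 19.5, 24.4 and 23.2 in luminal duct and 16.2, 20.5 and 19.4 in luminal TEB, with a log2 fold change in ducts of -4.74 ± 0.26 (edgeR adjusted p = 1.6e-47). Robo2 had a basal promoter and few other peaks. The Robo2 promoter was higher in basal duct (32.2 and 32.8 CPM) than in luminal duct (6.36, 5.97 and 7.52 CPM; log2 fold change 2.24 ± 0.10, edgeR adjusted p = 6.6e-27), with 11.8, 28.2 and 22.2 CPM in basal TEB and 6.31, 5.19 and 5.93 in luminal TEB. Of the 9 other Robo2 peaks, 5 were higher in luminal duct and 1 in basal duct, against 39.6% and 31.2% of the other peaks of all genes.

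**Figure D2:**
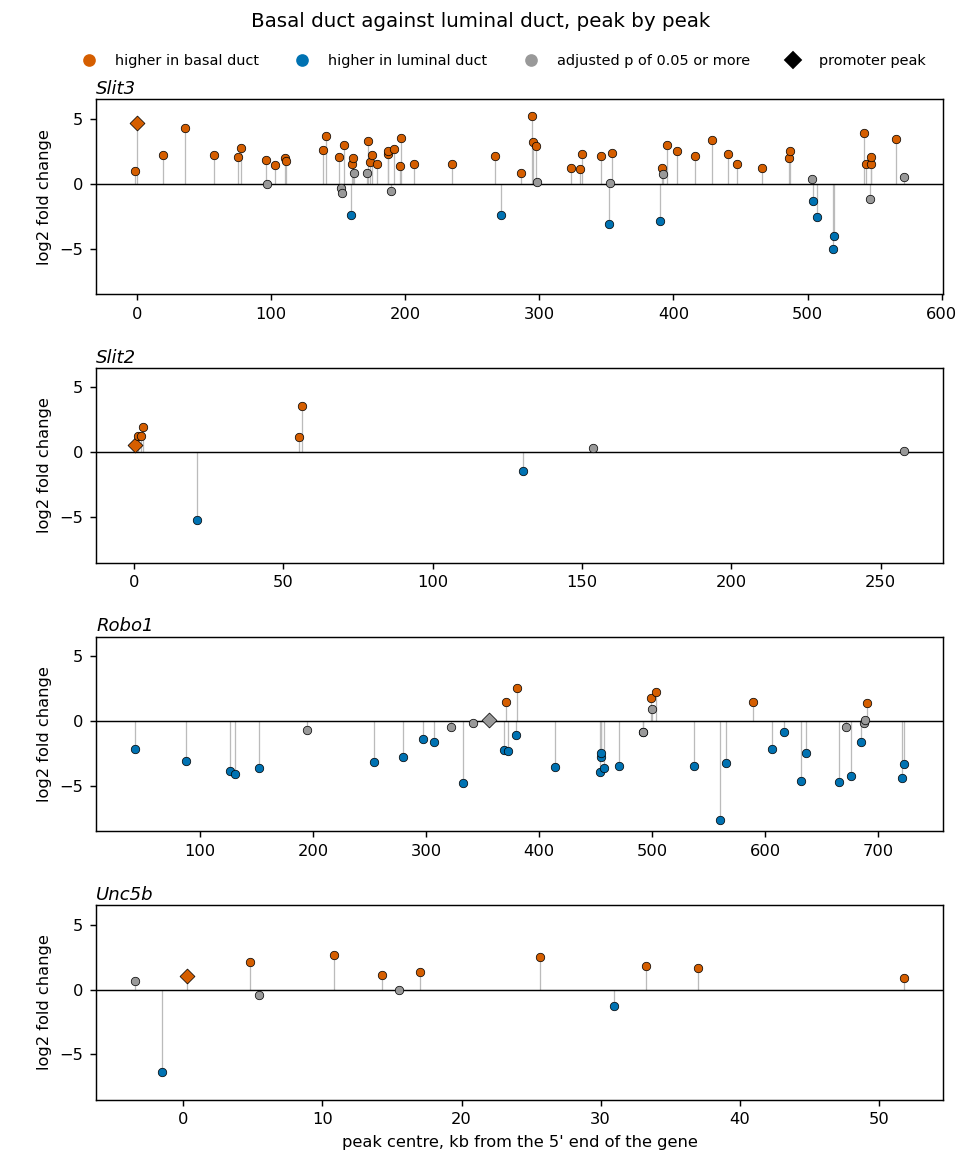
Each point is 1 peak, placed by the distance of its centre from the annotated 5′ end of the gene (kb) and by its log2 fold change between basal duct (up) and luminal duct (down). Diamonds are promoter peaks and grey points did not pass the test. Slit3 is basal along its length with 8 luminal sites, and Slit2 and Unc5b each hold a single strongly luminal site close to basal ones. Robo1 is mostly luminal. Its promoter peak has a log2 fold change near 0 and lies inside the gene, away from the annotated 5′ end.

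The netrin system was more open in basal than in luminal ducts at all 5 promoters it has among the 37, where 43.7% of all promoters were higher. Ntn1, of the ligand netrin-1, had 3 promoter peaks. The most accessible (chr11:68386612-68387299) stands for its promoter and lies inside the gene, whose annotated 5′ end is at chr11:68400823. It had 19.1 and 16.2 CPM in basal duct, 5.62, 9.78 and 7.53 in basal TEB, 7.0, 7.28 and 7.74 in luminal duct and 7.13, 6.01 and 7.57 in luminal TEB. Basal duct stood alone, and the other 3 groups overlapped. The log2 fold change in ducts was 1.21 ± 0.12 (edgeR adjusted p = 1.4e-07). The Ntn4 promoter, of a netrin of basement membranes, had 26.7 and 18.3 CPM in basal duct and 7.0, 8.58 and 6.88 in luminal duct (1.53 ± 0.27, edgeR adjusted p = 6.1e-12). Other Ntn1 peaks were split, with 4 higher in basal and 6 in luminal duct of 15, near the shares of 31.2% and 39.6% over all genes. Those of Ntn4 leaned to basal duct, with 5 and 1 of 8.

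Among netrin receptors, the Neo1 promoter, of neogenin, had 58.2 and 56.5 CPM in basal duct, 28.1, 30.5 and 34.6 in basal TEB, 32, 27.6 and 26.9 in luminal duct and 18.7, 22.4 and 19.4 in luminal TEB (ducts 0.93 ± 0.08, edgeR adjusted p = 1.4e-08). In both structures the basal libraries lay above the luminal ones. The Unc5c promoter, of a repulsive receptor, had 47.4 and 40.4 CPM in basal duct, 24.0, 30.1 and 22.2 in basal TEB, 12.3, 9.33 and 12.3 in luminal duct and 8.51, 10.1 and 9.88 in luminal TEB (ducts 1.90 ± 0.17, edgeR adjusted p = 1.7e-24). The Unc5b promoter had 49.7 and 40.8 CPM in basal duct, 32.2, 29.7 and 19.5 in basal TEB, 25.0, 18.7 and 18.9 in luminal duct and 15.4, 21.6 and 13.5 in luminal TEB (ducts 1.06 ± 0.19, edgeR adjusted p = 1.8e-09). A peak 1.56 kb upstream of Unc5b (chr10:60832813-60833459) ran the other way and had the largest log2 fold change of the named peaks. It held 0.456 and 0.308 CPM in basal duct, 1.53, 3.13 and 2.66 in basal TEB, 35.2, 35.6 and 28.8 in luminal duct and 22.2, 27.6 and 21.7 in luminal TEB, a difference of -6.39 ± 0.17 in ducts (edgeR adjusted p = 9.2e-72). The basal duct values rest on 4 and 2 counts. Of the 13 other Unc5b peaks 8 were higher in basal duct, so that this luminal site lay next to a promoter and gene body that were more open in basal cells. Dcc, of the netrin receptor best known from commissural axons, had 4 other peaks, all higher in luminal duct, and Unc5a had 3, of which 1 was higher in luminal duct. Among the other peaks of all genes, 31.2% were higher in basal and 39.6% in luminal duct.

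**Figure D3:**
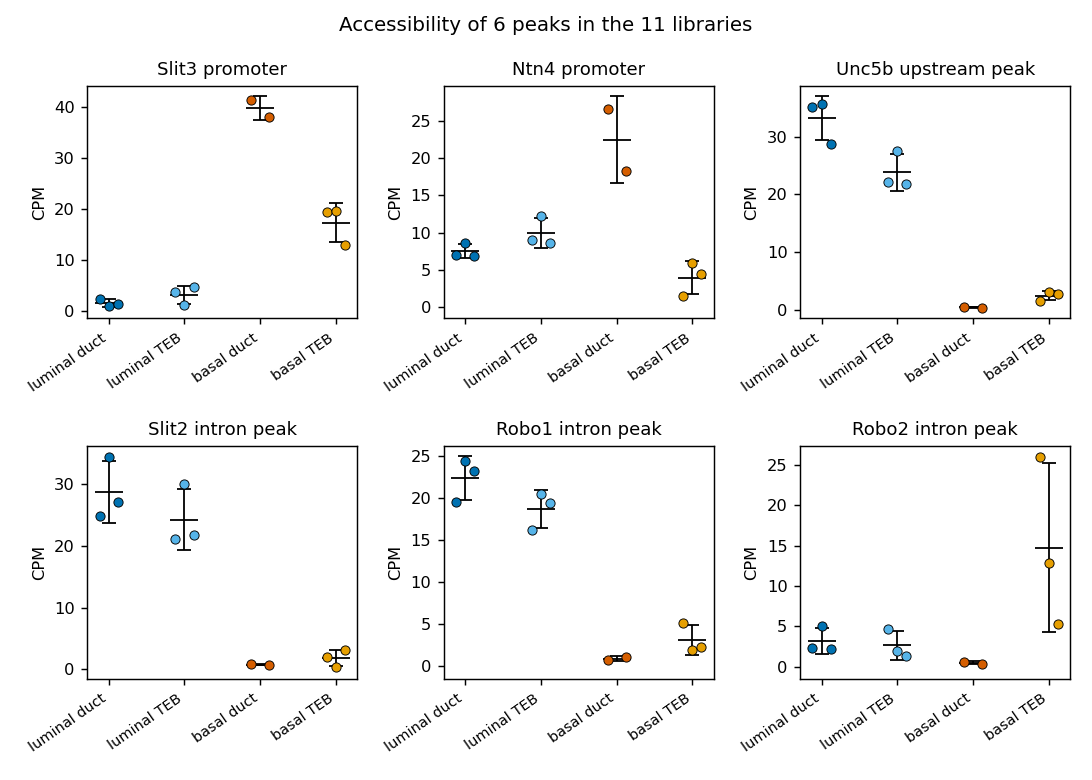
Points are the 11 libraries, horizontal lines the group mean and bars the SD (n = 2 for basal duct, otherwise 3), in CPM on a linear axis. The Unc5b, Slit2 and Robo1 sites are high in the 6 luminal libraries and at most 5.11 CPM in the 5 basal ones, the Ntn4 promoter is highest in basal duct, and the 3 basal TEB values of the Robo2 repeat peak spread from 5.32 to 26.1 CPM.

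Semaphorins are secreted or membrane-anchored ligands. Among the secreted class 3 members, 2 of 5 promoters were higher in basal duct, near the 43.7% share of all promoters. The Sema3c promoter had 52.8 and 49.9 CPM there and 21.6, 23.7 and 26.2 in luminal duct (1.05 ± 0.08, edgeR adjusted p = 5.2e-10). The Sema3f promoter did not differ beyond its spread, with 45.7 and 37.7 CPM in basal duct and 47.7, 39.7 and 43.8 in luminal duct (-0.13 ± 0.15, edgeR adjusted p = 0.48), although 6 of its 7 other peaks were higher in basal duct. The membrane semaphorins were basal at 5 of 6 promoters and at 58 of 99 other peaks, with 16 higher in luminal duct. For other peaks of all genes, the shares were 31.2% higher in basal and 39.6% in luminal duct. The Sema5a promoter had 56.3 and 46.2 CPM in basal duct, 29.1, 25.8 and 33.2 in basal TEB, 15.1, 14.0 and 15.3 in luminal duct and 9.60, 10.1 and 8.56 in luminal TEB, and basal and luminal libraries did not overlap (ducts 1.74 ± 0.14, edgeR adjusted p = 7.3e-23). Of 35 other Sema5a peaks, 27 were higher in basal and 1 in luminal duct. The Sema4a promoter was higher by 1.34 ± 0.09 (edgeR adjusted p = 2.5e-10) and that of Sema7a, a GPI-anchored member, by 0.83 ± 0.10 (edgeR adjusted p = 0.00031), the latter 0.33 (adjusted p = 0.15) with GC offsets. An intron peak of Sema6a was among the most basal sites, with 27.7 and 25.7 CPM in basal duct and 0.636, 1.12 and 1.29 in luminal duct (4.63 ± 0.23, edgeR adjusted p = 1.5e-52).

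The semaphorin receptors followed. All 5 plexin promoters were higher in basal duct, by 0.42 to 0.76, where 43.7% of all promoters were higher, with a median of 0.31. Their 51 other peaks were near balance, with 20 higher and 17 lower, against 31.2% and 39.6% for all genes. The Plxna1 promoter had 46.4 and 37 CPM in basal duct and 25.7, 25.9 and 19.1 in luminal duct (0.76 ± 0.21, edgeR adjusted p = 1.6e-05), which was 0.26 (adjusted p = 0.083) with GC offsets. The co-receptor neuropilin-2 differed more. Its promoter, Nrp2, had 28.1 and 25.1 CPM in basal duct, 16.4, 13.3 and 18.2 in basal TEB, 8.91, 8.58 and 7.09 in luminal duct and 3.57, 5.74 and 6.59 in luminal TEB (ducts 1.64 ± 0.12, edgeR adjusted p = 3.4e-15), and 12 of its 18 other peaks were higher in basal and 1 in luminal duct. For Nrp1 those counts were 3 and 5 of 13.

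Eph receptors had the most one-sided gene bodies of the families. Of their 77 other peaks, 53 were higher in basal duct and 0 in luminal duct (0 at an unadjusted p under 0.05, and 0 with DESeq2). Over all genes, 31.2% of other peaks were higher in basal and 39.6% in luminal duct. Ephb2, of a receptor for B-class ephrins, led with 24 of 32 peaks, from 5.87 to 187 kb into the gene. Its promoter had 36.3 and 34 CPM in basal duct, 12.8, 14.5 and 20.4 in basal TEB, 7.21, 7.28 and 7.74 in luminal duct and 6.04, 8.2 and 5.60 in luminal TEB, and all basal libraries lay above all luminal ones (ducts 2.19 ± 0.05, edgeR adjusted p = 1.8e-27). The Epha4 promoter was higher by 1.16 ± 0.15 (edgeR adjusted p = 6.1e-10) and that of Ephb4 by 1.11 ± 0.17 (edgeR adjusted p = 9.6e-10). Epha1 was the exception at promoters, with 36.6 and 28.3 CPM in basal duct and 46.9, 49.6 and 39.1 in luminal duct (-0.53 ± 0.20, edgeR adjusted p = 0.0021). Epha2 joined a modest promoter with a strongly basal flank. Its promoter had 24.8 and 17.9 CPM in basal duct and 12.3, 15.3 and 13.8 in luminal duct (0.58 ± 0.24, edgeR adjusted p = 0.0061). This call was lost with TSS scaling (0.25, edgeR adjusted p = 0.24), loess offsets (0.32, edgeR adjusted p = 0.082) and GC offsets (0.21, edgeR adjusted p = 0.28), and without basal duct replicate 1 (0.37, edgeR adjusted p = 0.21). A peak 2.94 kb from a TSS (chr4:141297260-141298299) had 32.8 and 32 CPM in basal duct and 0.636, 1.68 and 1.5 in luminal duct (4.57 ± 0.33, edgeR adjusted p = 2.1e-60). Of the ephrin ligands, Efna5 had 12.2 and 10.3 CPM at its promoter in basal duct and 4.24, 6.34 and 6.45 in luminal duct (0.93 ± 0.21, edgeR adjusted p = 0.00048, and 0.42 with edgeR adjusted p = 0.12 under GC offsets), and 16 of its 37 other peaks were higher in basal and 7 in luminal duct.

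**Figure D4:**
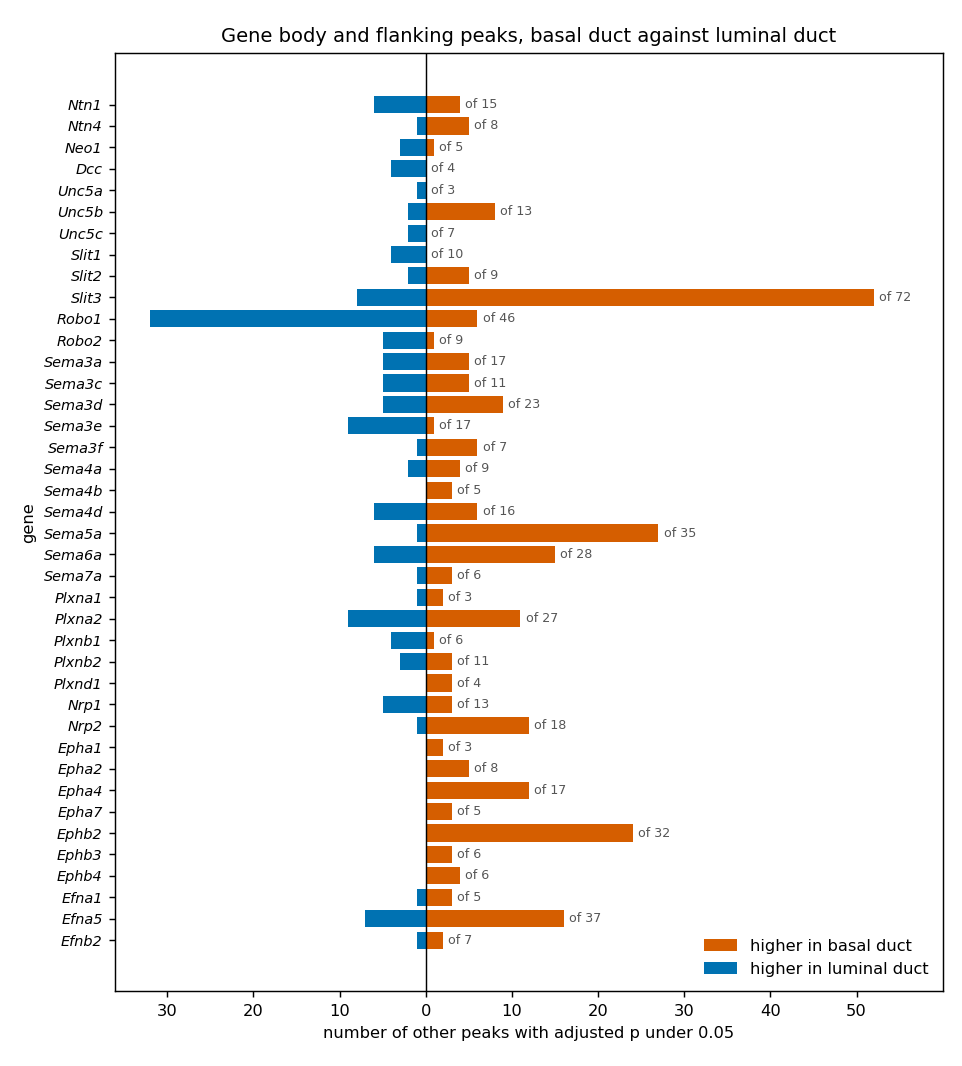
Bars give, per gene, the number of other peaks called higher in basal duct (right) or in luminal duct (left) at an edgeR adjusted p under 0.05, with the number tested in grey. Slit3 (52 of 72), Sema5a (27 of 35) and Ephb2 (24 of 32) extend to the right, and Robo1 (32 of 46) to the left. For the other peaks of all genes the shares were 31.2% to the right and 39.6% to the left.

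The short motifs in these peaks were counted as a description. AP-1 matches were in 41.3% of the 143 luminal-enriched member windows and in 23.6% of the 275 basal-enriched ones. FOX matches were in 14.7% and 2.18%, GATA matches in 25.2% and 13.1%, and TEAD matches in 21.0% and 27.6% in the same order. The windows of all genes enriched the same way held AP-1 in 37.2% and 21.9%, FOX in 12.9% and 2.55%, GATA in 15.6% and 12.6%, and TEAD in 18.9% and 28.0%. The direction was the same in both sets for each of these 4 motifs, and for RUNX and p63. For ETS and SRF it was opposite. Their matches were more frequent on the luminal side in members and on the basal side over all genes. In members these shares rest on 3 luminal-enriched and 5 basal-enriched windows for ETS, and on 4 and 6 for SRF. The windows of all genes include those of the members. Median GC content was 45.8% in luminal-enriched and 49.6% in basal-enriched member peaks, and 47.2% and 50.3% over all genes. The part of base composition in these shares was not tested.

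The same question was asked in TEBs, where basal TEB was compared with luminal TEB. The basal side again held more open axon guidance promoters, with 12 of 37 higher and 2 lower, against 9.72% and 15.1% of all promoters, and medians of 0.17 and -0.09. Of 583 other peaks, 133 were higher and 78 lower, against 16.8% and 22.6%, with medians of 0.46 and -0.14. The strongest promoters were those of Slit3 (2.496 ± 0.52, edgeR adjusted p = 2.0e-09), Robo2 (1.85 ± 0.39, edgeR adjusted p = 6.8e-07), Sema5a (1.63 ± 0.12, edgeR adjusted p = 4.9e-08), Nrp2 (1.59 ± 0.27, edgeR adjusted p = 2.2e-05) and Unc5c (1.43 ± 0.15, edgeR adjusted p = 5.3e-06). Ephb2, Epha4, Sema4a and Ephb4 were higher by 1.05 to 1.26. The 2 promoters higher in luminal TEB were those of Ntn4 (1.53, 5.87 and 4.43 CPM in basal TEB against 9.06, 12.3 and 8.56; -1.28 ± 0.51, edgeR adjusted p = 0.0062) and Sema3f (20.4, 13.3 and 19.5 against 35.7, 34.4 and 38.2; -1.03 ± 0.19, edgeR adjusted p = 0.00038). The call at Ntn4 was lost without luminal TEB replicate 2 (-1.11, edgeR adjusted p = 0.069), and without basal TEB replicate 2 the promoters called lower were 4. Promoters of Neo1 (0.63), Unc5b (0.68) and Sema3c (0.69) passed by small margins, and each lost its call without single libraries: Neo1 without basal TEB replicate 3 (0.54) or any luminal TEB replicate (0.58 to 0.71), Unc5b without basal TEB replicate 1 or 2 (0.57 and 0.61) or luminal TEB replicate 1 or 3 (0.63 and 0.56), and Sema3c without basal TEB replicate 2 (0.49) or luminal TEB replicate 1 or 3 (0.58 and 0.56).

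Among other peaks in TEBs, the luminal sites of Slit2 (-3.73 ± 0.56, edgeR adjusted p = 8.4e-18) and Unc5b (-3.23 ± 0.27, edgeR adjusted p = 2.7e-16) stood apart between the lineages as in ducts. So did the basal sites of Slit3 (3.95 ± 0.57, edgeR adjusted p = 9.3e-20) and Sema6a (4.33 ± 0.45, edgeR adjusted p = 9.0e-27). Each of these differences was smaller in size than in ducts, where they were -5.23 at Slit2, -6.39 at Unc5b, 5.20 at Slit3 and 4.63 at Sema6a. Nrp2 had an intron peak with 22.5, 32.5 and 31.9 CPM in basal TEB and 2.47, 3.01 and 1.65 in luminal TEB (3.58 ± 0.26, edgeR adjusted p = 8.5e-22). An intron peak of the plexin gene Plxna2 was open in luminal TEB alone of the pair, with 12.9, 15.0 and 18.8 CPM against 1.02, 1.17 and 0 in basal TEB, on 2, 3 and 0 counts (-4.31 ± 0.48, edgeR adjusted p = 1.3e-15). With offsets by intensity or by GC content the peaks called lower fell from 78 to 38 and 35.

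To ask what distinguishes the growing tip, basal TEB was compared with basal duct. Most axon guidance promoters were less open in basal TEB, as were promoters at large. Of 37 promoters 20 were lower, against 34.9% of all promoters, and 0 were higher, against 0.604% (0 at an unadjusted p under 0.05, and 0 with DESeq2 and with the quasi-likelihood test). The median was -0.78 over the members and -0.65 over all promoters. Scaling on TSS peaks set the median of all promoters to 0.00 and that of the members to -0.13. Then 3 promoters remained lower, those of Ntn4, Plxna1 and Slit2, against 3.52% of all promoters. The lower share of counts in TSS peaks in basal TEB moved with this result, as did the fibroblast markers, of which 4 of 5 promoters were lower in basal TEB, and the Schwann cell and nerve markers, of which 2 of 6 were lower. The summed pericyte markers were also lower, though 0 of 4 passed the test (2 at an unadjusted p under 0.05, and 0 with DESeq2). The part of none of these was tested. Without basal duct replicate 1 only Ntn4 of the 20 passed, without basal duct replicate 3 the promoters of Ntn4, Slit2, Plxna1, Sema3f and Efna5 did, and without basal TEB replicate 3 the count was 13.

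The Ntn4 promoter fell furthest and kept its call under every alternative run. It had 26.7 and 18.3 CPM in basal duct and 1.53, 5.87 and 4.43 in basal TEB, from 234 and 119 counts against 3, 15 and 10, with no overlap (-2.46 ± 0.58, edgeR adjusted p = 4.3e-08). With TSS scaling the log2 fold change was -1.81 (adjusted p = 0.00010), and without basal duct replicate 1 it was -2.14 (adjusted p = 0.014). Of 8 other Ntn4 peaks, 4 were also lower in basal TEB, at 2.35 to 39.0 kb into the gene, and none was higher. The Plxna1 promoter had 46.4 and 37 CPM in basal duct and 10.74, 16 and 17.3 in basal TEB (-1.496 ± 0.28, edgeR adjusted p = 3.6e-05). The Slit2 promoter, with the values given above, had a difference of -1.36 ± 0.23 (edgeR adjusted p = 0.00016). Both lost their call without basal duct replicate 1, at -1.30 (adjusted p = 0.10) and -1.21 (adjusted p = 0.14).

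The remaining named promoters did not keep their call once promoters were scaled to each other. These were Efna5 (-1.73 ± 0.31), Sema3f (-1.24 ± 0.25), Slit3 (-1.20 ± 0.22), Ntn1 (-1.19 ± 0.26), Ephb2 (-1.14 ± 0.20), Sema7a (-1.06 ± 0.12), Epha2 (-1.05 ± 0.29), Robo1 (-1.04 ± 0.26), Neo1 (-0.88 ± 0.09), Sema5a (-0.81 ± 0.19) and Unc5c (-0.78 ± 0.19), with edgeR adjusted p from 0.00067 to 0.034 under all-peak scaling. At Ntn1 the values were 19.1 and 16.2 CPM in basal duct and 5.62, 9.78 and 7.53 in basal TEB. At Efna5 they were 12.2 and 10.3 against 3.07, 4.70 and 2.22. Unc5b (-0.74 ± 0.28, edgeR adjusted p = 0.055) and Robo2 (-0.63 ± 0.37, edgeR adjusted p = 0.14) did not pass under either scaling.

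**Figure D5:**
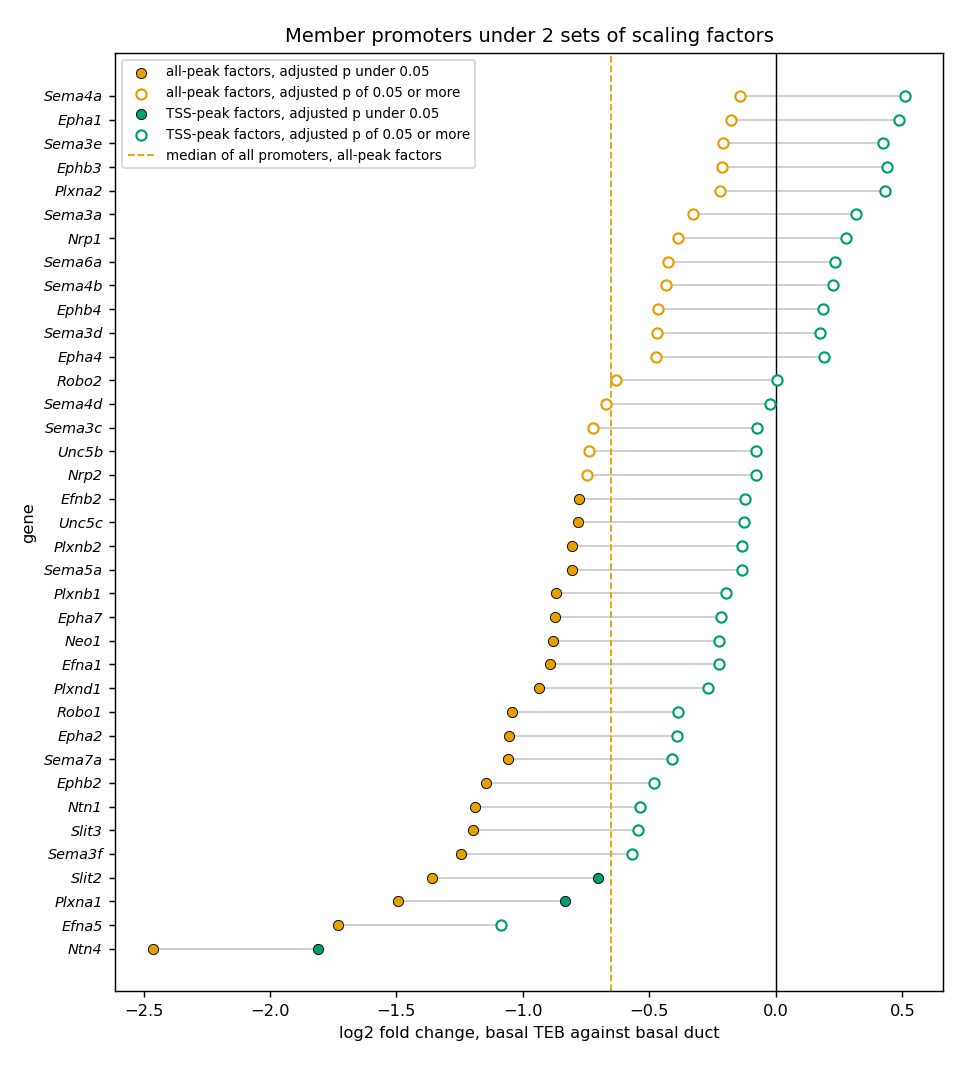
Points give, per promoter, the log2 fold change of basal TEB against basal duct with factors from all peaks (orange) and from TSS peaks (green), filled where the edgeR adjusted p was under 0.05. The dashed line is the median of all promoters with factors from all peaks (-0.65). Of 20 filled orange points, those of Ntn4, Plxna1 and Slit2 stay filled in green.

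Other peaks went both ways. Of 583, 33 were higher and 50 lower in basal TEB, against 6.47% and 7.19% of the other peaks of all genes, with medians of -0.11 and 0.09. With TSS scaling the counts were 69 and 4. They were 3 and 1 without basal duct replicate 1, and 5 and 8 without basal duct replicate 3. Eph receptor peaks were lower at 11 of 77 and netrin ligand peaks at 8 of 23, while netrin receptor peaks were higher at 6 of 32 and secreted semaphorin peaks at 10 of 75. All 3 Unc5a peaks were higher, in a gene with no promoter peak. The luminal site upstream of Unc5b was also higher in basal TEB (2.58, edgeR adjusted p = 0.041), on 3, 8 and 6 counts against 4 and 2 in basal duct.

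The site with the smallest p-value was the Robo2 repeat shown above, 236 kb from the nearest Robo2 TSS (chr16:74174451-74175008). It had 0.570 and 0.308 CPM in basal duct, 26.1, 12.9 and 5.32 in basal TEB, 2.33, 5.04 and 2.15 in luminal duct and 4.67, 1.91 and 1.32 in luminal TEB (4.92 ± 0.68, edgeR adjusted p = 6.2e-12). The call held under every alternative run. Its 41-base unit was not lower case in the reference, so a count of soft-masked peaks leaves it out. Over the 33 peaks higher in basal TEB, 11 were over 50% soft-masked and 3 were tandem repeats with at least 80% identity between units, 12 with either property (36.4%), against 3.60% of the 583 peaks. For all genes these shares were 48.2% of higher peaks and 6.72% of all. Of the 50 lower peaks, 0 had either property.

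The other named sites gained in basal TEB were not repeats. An Unc5a intron peak (chr13:54987592-54987997) had 0.570 and 1.54 CPM in basal duct, 12.8, 11.7 and 6.65 in basal TEB, 0.636, 0.560 and 0.645 in luminal duct and 1.92, 0.546 and 2.31 in luminal TEB, and its call held under every alternative run (3.33 ± 0.55, edgeR adjusted p = 7.4e-08). A Plxna2 intron peak had 0.798 and 1.08 CPM in basal duct and 6.65, 7.83 and 8.42 in basal TEB (3.01 ± 0.16, edgeR adjusted p = 6.5e-06), and its adjusted p was 0.083 without basal duct replicate 1 (2.81). Both rest on at most 30 counts in a library. The named losses were an exon peak of Sema4d (23.9 and 24.5 CPM in basal duct against 6.65, 5.87 and 7.98; -1.82 ± 0.11, edgeR adjusted p = 6.5e-06), which kept its call under every alternative run, an intron peak of Epha7 0.628 kb from a TSS (25.4 and 21.3 against 6.13, 6.65 and 7.98; -1.75 ± 0.18, edgeR adjusted p = 1.7e-05), and a peak 2.53 kb from a Sema6a TSS (12.9 and 10.8 against 2.56, 2.74 and 3.10; -2.07 ± 0.16, edgeR adjusted p = 9.4e-05). The last pair lost their calls without basal duct replicate 1 (-1.59 and -1.90).

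Luminal TEB was then compared with luminal duct, the same step in the other lineage. Few axon guidance sites differed, as for peaks at large. Of 37 promoters, 0 were higher, against 0.102% of all promoters (2 at an unadjusted p under 0.05, and 0 with DESeq2), and 1 was lower, against 1.44%, with medians of -0.17 and -0.16. This was Epha7, of an Eph receptor for A-class ephrins, with 69.3, 77.6 and 78.9 CPM in luminal duct and 34, 53.0 and 56 in luminal TEB (-0.66 ± 0.23, edgeR adjusted p = 0.0097), a call lost without luminal duct replicate 2 or luminal TEB replicate 1. Of 583 other peaks, 1 was higher, against 0.334%, and 2 lower, against 0.287%. These were an Ephb2 intron peak (0.95 ± 0.20, edgeR adjusted p = 0.038), an Epha7 intron peak (-0.62 ± 0.19, edgeR adjusted p = 0.031) and a Plxnb1 exon peak (-1.16 ± 0.23, edgeR adjusted p = 0.033). Each was lost in at least 4 of the fits that left out 1 library, with log2 fold changes of 0.84 to 1.01, of -0.67 to -0.48 and of -1.31 to -0.94 in the fits that lost it. At Slit3 the luminal values were low in both structures, and the difference of 1.00 ± 0.60 did not pass (edgeR adjusted p = 0.41).

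Whether the step from duct to TEB differed between lineages was tested as an interaction in the edgeR quasi-likelihood model over 11 libraries. The log2 fold change of TEB over duct was lower in basal than in luminal cells at 8 of 37 promoters. It was higher at 0 (0 at an unadjusted p under 0.05). Over all promoters these shares were 14.8% and 0.998%, and the medians were -0.46 and -0.43. At the promoters of Ntn4, Slit3, Sema7a and Plxnb1 the luminal mean was higher in TEB than in duct. Of 475 other peaks tested, 25 were positive and 22 negative, against 6.97% and 5.40%. Without basal duct replicate 1 the negative promoters were 3 and the other peaks 10 and 9. Without luminal duct replicate 3 those promoters were 5, and the positive other peaks were 10 without basal duct replicate 3 and 15 without luminal TEB replicate 1.

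The wider pathway was described from 38 other members of these families and 34 intracellular transducers, of which 33 each had a promoter peak. In ducts, 25 of 33 promoters of other family members were higher in basal duct and 1 was lower (median 0.97), while 43.7% of all promoters were higher and 11.3% lower. They were led by Ntng2, a membrane-anchored netrin (2.81 ± 0.12, edgeR adjusted p = 2.0e-39), and Ephb1 (2.20 ± 0.17, edgeR adjusted p = 2.8e-31). Transducers were higher at 18 and lower at 3 of 33 (median 0.46), near the shares of all promoters, and the lower ones included the kinase gene Fes (-1.42 ± 0.27, edgeR adjusted p = 0.00047). Sema4f was the family member lower in basal duct (-1.09 ± 0.15, edgeR adjusted p = 4.9e-06). In basal TEB against basal duct, 14 family promoters and 16 transducer promoters were lower and 0 were higher in either list (1 and 0 at an unadjusted p under 0.05, and 0 with DESeq2), while 34.9% of all promoters were lower and 0.604% higher. The lower ones were led by Enah, an actin regulator (-1.94 ± 0.49, edgeR adjusted p = 4.8e-06), and Epha8 (-2.21 ± 0.56, edgeR adjusted p = 6.4e-06). In TEBs, where 9.72% of all promoters were higher and 15.1% lower, 14 family promoters were higher on the basal side and 2 lower, among them Ephb1 (1.77 ± 0.28, edgeR adjusted p = 1.2e-08), Flrt2 (1.81 ± 0.23, edgeR adjusted p = 4.3e-08) and the BMP co-receptor and neogenin ligand gene Rgmb (-0.83 ± 0.19, edgeR adjusted p = 0.0017), and transducers were split 4 and 4 of 33, near the shares of all promoters, with Chn1 lowest in p among the lower ones (-1.65 ± 0.29, edgeR adjusted p = 8.3e-05). In luminal TEB against luminal duct, where 0.102% of all promoters were higher and 1.44% lower, no promoter of either list passed the edgeR test or DESeq2, and at an unadjusted p under 0.05 there were 0 higher and 5 and 3 lower.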

How the data were processed

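The authors aligned ATAC-seq reads to mm10 with Bowtie2 (2.3.4.3 in the submitters' processing notes), removed duplicates and ran MACS2 per population with its replicates combined. They joined peaks that overlapped and deposited raw counts of reads per merged peak and library. A site open in only 1 population is therefore still a peak in all. How reads with several equal alignments were treated is not stated in the methods or labels, which bears on peaks in repeats. The deposited counts were used as they are, for 153396 peaks and 11 libraries. Peaks were linked to genes with GENCODE vM21 basic transcripts on GRCm38, with 41421 TSSs of protein-coding transcripts.

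Pairs of groups were compared with the exact test of edgeR 4.0.16 (R 4.3.3), with TMM factors, every peak counted in either group of the pair and Benjamini-Hochberg adjustment over all of them at 0.05. The interaction used the quasi-likelihood test over 11 libraries, after removing peaks of low count. A log2 fold change is that of the first-named group over the second. Its SE comes from the spread of log2 CPM (prior count 2) between libraries, and levels are TMM-scaled CPM over 11 libraries. Levels depend on peak width and were compared within a peak only. The exact test was first run on simulated counts. These used a single dispersion for all pairs, and changes were set only in peaks averaging at least 20 counts. The run therefore does not speak for peaks of lower count. Alternatives were DESeq2 1.42.0 size factors and its Wald test, TMM factors from TSS peaks, loess offsets (limma 3.58.1), offsets in 20 GC bins, filterByExpr, the quasi-likelihood test, a replicate block and leaving out each library.

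Named were all netrin, SLIT and receptor promoters, other promoters past the threshold with a log2 fold change of at least 1 in size in any pair, per pair and direction the 3 other peaks with the smallest p, at most 1 per gene, and from the wider lists the 2 promoters with the smallest p. Promoters of Epha1 and Epha7, named as the only call in a direction, and peaks of Dcc and Slit1 were added after their values were seen. The members, lists and rules were chosen with earlier results of these data known.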

Additional observations from a re-analysis of the deposited data

Results flagged for a closer look

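The step from duct to TEB differed between basal and luminal cells, in the interaction test of the edgeR quasi-likelihood model, at 8 of the 37 promoters, all of them negative, where 14.8% of all promoters were negative, and at some of the named other peaks. Those peaks had been picked for small p-values in the pair comparisons of the same libraries, so how many of them passed is not read as a result (6.97% of the other peaks of all genes were positive and 5.40% negative). Values are the log2 fold change of basal TEB over basal duct minus that of luminal TEB over luminal duct. At promoters the difference was -2.79 for Ntn4 (edgeR adjusted p = 2.5e-05), -2.12 for Slit3, -1.63 for Efna5, -1.36 for Plxna1, -1.24 for Sema7a, -0.94 for Plxnb1, and -0.90 each for Slit2 and Sema3f, where the median over all promoters was -0.43. At Ntn4 the basal libraries were lower in TEB and the luminal ones were not, with means of 3.95 CPM in basal TEB and 22.5 in basal duct against 9.97 in luminal TEB and 7.49 in luminal duct. At Slit3 the luminal levels rest on few counts. Without single libraries the calls at Slit2, Sema3f, Sema7a, Plxnb1 and Efna5 were lost: at Slit2 without 7 of the 11, at -1.05 to -0.71, and at the others without 3 or 4, at -0.89 to -0.79 for Sema3f, -1.33 to -1.12 for Sema7a, -0.86 to -0.80 for Plxnb1 and -1.58 to -1.39 for Efna5. Without basal duct replicate 1 all 5 were lost, Plxnb1 at -0.80 (edgeR adjusted p = 0.12), and those at Ntn4, Slit3 and Plxna1 passed without any single library.

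Among other peaks the difference was 5.24 at the Robo2 tandem repeat (edgeR adjusted p = 1.1e-05), 3.14 at the peak upstream of Unc5b, 2.88 at the Plxnb1 exon peak, 2.1 at the Robo1 intron peak, -1.15 at the Epha7 intron peak, -1.72 at the peak upstream of Epha2, -1.74 at the Ephb2 intron peak, -1.99 at the Sema4d exon peak and -2.04 at the Sema6a upstream peak. At Unc5b, Robo1 and Plxnb1 the basal levels rest on at most 10 counts in any library. Leaving out single libraries, the calls were lost at the Epha7, Sema6a, Plxnb1, Epha2 and Robo1 peaks, at -1.14 to -1.04, at -1.98, at 2.28 to 2.65, at -1.57 to -1.39 and at 1.61 to 1.69. The cause of none of these differences was tested.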

How the results depend on the processing

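No named call changed sign under any alternative run. In basal TEB against basal duct the 20 lower promoters became 3 with TSS scaling, 7 with loess offsets, 3 with GC offsets, 8 with filterByExpr and 11 with the DESeq2 Wald test (1 to 23 leaving out single libraries). The 33 higher other peaks became 69 with TSS scaling and 61 with the quasi-likelihood test (3 to 39), and the 50 lower ones 4, 25, 18, 17 and 14 in the order of the promoters (1 to 57). In luminal TEB against luminal duct, TSS scaling gave 1 higher promoter (0 to 0), and loess offsets and the quasi-likelihood test gave 0 lower ones (0 to 1). Its other peaks were 3 higher with TSS, loess and GC offsets, 2 with filterByExpr and 0 with the quasi-likelihood and DESeq2 tests (0 to 1), and 0 lower with TSS scaling and the quasi-likelihood test and 1 with loess, GC and DESeq2 (0 to 4). Between ducts, 17 promoters were higher with GC offsets (24 to 29) and 5, 2 and 5 lower with TSS, loess and GC (0 to 1), while other peaks gave 237 to 268 higher and 109 to 130 lower leaving out libraries. Between TEBs, 4 promoters were lower with the quasi-likelihood test (1 to 4; higher 9 to 13), and lower other peaks were 38 with loess, 35 with GC and 47 with filterByExpr (57 to 70; higher 103 to 145). The interaction gave 3 to 11 lower promoters, 10 to 34 higher and 9 to 33 lower other peaks leaving out libraries. Same-numbered libraries of different groups correlated at -0.04 to 0.08 in their deviations from the group means. Between luminal duct and luminal TEB the same-numbered pairs gave 0.04 to 0.08 and the other pairs -0.06 to -0.003. Whether the replicate numbers pair the samples was not tested. With the number as a replicate block, counts were 8 lower promoters and 18 lower other peaks in basal TEB against basal duct, 1 higher promoter and 4 higher other peaks in luminal TEB against luminal duct, and 43 lower other peaks between TEBs. The cause of these changes was not tested. Basal TEB libraries were the shallowest, so differences there were the least detectable.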
